A study of Mus musculus with 4 samples.

Results

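The immediate early genes of the AP-1 and Egr families were examined for N6-methyladenosine (m6A), the most common internal modification of mRNA, in mouse c-Kit+ cells. The 10 genes were chosen by name, with earlier results of these data known. They were Jun, Junb, Jund, Fos, Fosb, Fosl2, Egr1, Egr2, Egr3 and Ier2, out of 21938 protein-coding genes of the annotation. A gene counted as carrying a peak when the summit of an m6A peak, the position of its highest signal, lay in one of its exons. The peaks came from meRIP-seq, in which RNA is broken into fragments, fragments with m6A are pulled down with an antibody (immunoprecipitation, IP), and the captured fragments are sequenced beside an unselected input. The series has 4 samples, of which IP replicates 1 and 2 each came with a peak list, and no file of input replicates 1 and 2 was analysed here. Per the labels the cells were Kit+ cells of foetal liver from C57BL/6 mice, enriched on a magnetic column. The study's methods name the genotype as Ythdf2 CTL, which is Ythdf2 fl/fl without Cre, so the m6A reader YTHDF2 was not deleted. In that floxed allele GFP is fused to YTHDF2, in every sample alike. The age of the embryos and the number pooled per sample are not given in the sources used here. There was a single group of IP samples, so no difference between conditions could be tested, and what follows describes this pair of libraries.

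Immediate early genes are switched on within minutes of a growth factor, cytokine or stress signal, without any need for new protein. Jun and Fos proteins pair through a leucine zipper to form AP-1, a transcription factor that binds DNA as a dimer, and the Egr proteins bind GC-rich DNA through zinc fingers. Their mRNAs are short-lived, and in blood stem and progenitor cells they are known to rise when cells are activated, dissociated or handled. YTHDF2 binds m6A in mRNA and promotes decay of the bound transcript.

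Of the 10 genes, 8 carried an exonic peak in both replicates, namely Jun, Junb, Jund, Fos, Fosb, Fosl2, Egr1 and Ier2. Egr2 and Egr3 had none in either replicate, and no gene had one in a single replicate. Over all protein-coding genes 30.9% carried a peak in both. That share includes genes not expressed in these cells, and the share among expressed genes was not computed. The genes with a peak held 13 peaks in replicate 1 and 16 in replicate 2, out of 15635 and 14872 peaks in the lists. Their fold enrichment is the ratio of IP signal to background at the summit, on a common scale and with 1 added to each. It spanned 2.93 to 12.3 in replicate 1, and in replicate 2 the lowest was 2.91 and the highest 11.3. The median was 5.45 and 6.39, beside 4.18 and 4.39 for all exonic peaks, and 11 of 13 and 12 of 16 peaks lay above those medians. The median −log10 q, the certainty of a peak, was 28.7 and 19.2, beside 16.1 and 15.8, with 10 of 13 and 8 of 16 peaks above. The median number of IP reads at the summit was 82 and 44, beside 68 and 66, with 7 of 13 and 6 of 16 above, so in replicate 2 most peaks of the group rested on fewer reads than the median peak. Peaks in the same gene share its reads and are not independent of each other.

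**Figure D1:**
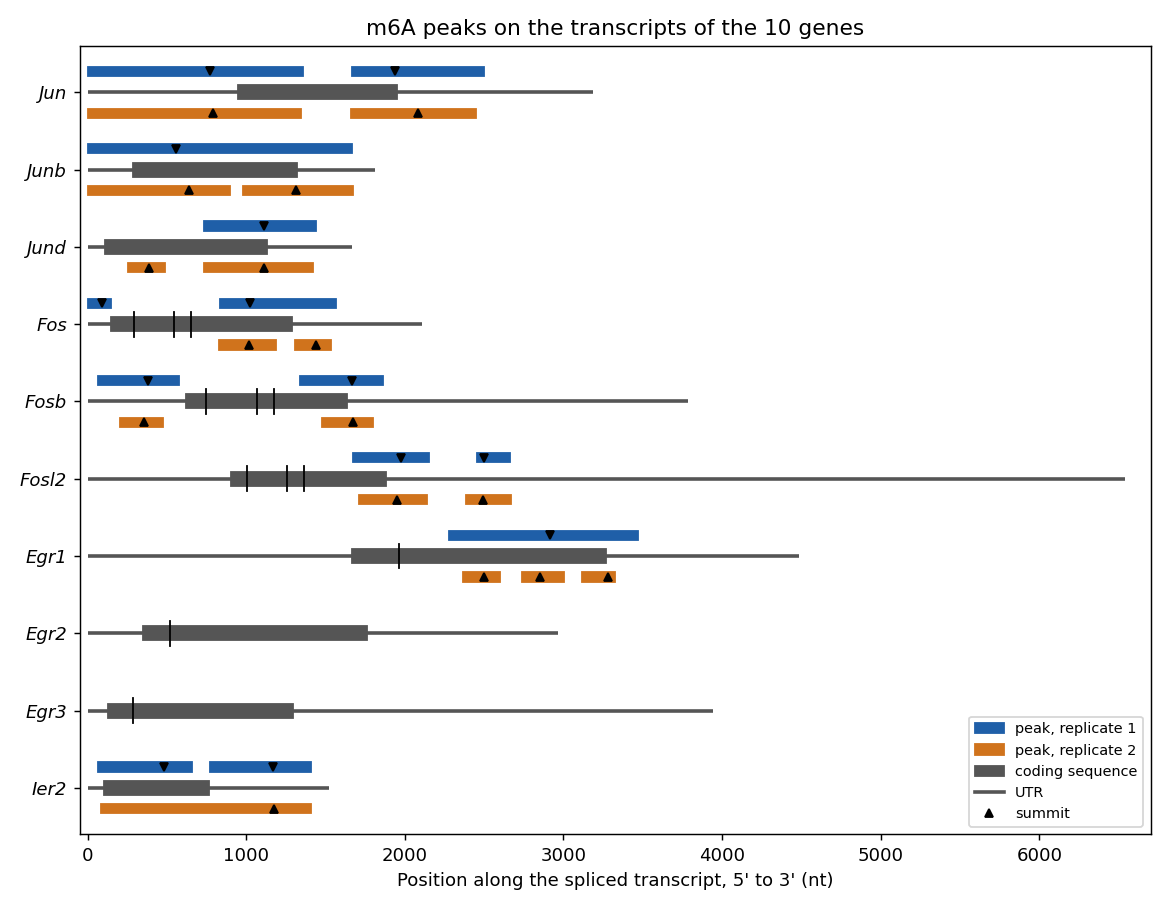
Spliced transcripts of the 10 genes drawn to scale from 5′ to 3′ (x axis, nt), with the coding sequence as a thick bar, UTRs as a line, exon junctions as ticks and peaks above (replicate 1) and below (replicate 2), each with its summit as a triangle. Peaks cover most of Jun, Junb and Ier2 and lie mainly over the last exon of Fos, Fosl2 and Egr1. Those of Fosb lie over its first and its last exon, and Egr2 and Egr3 have none.

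The Jun family supplies the subunits that can pair with themselves as well as with Fos proteins, and all of its 3 genes consist of a single exon. Jun (chr4:95049034-95052222, − strand) carried 2 peaks in each replicate. The upstream peak had its summit in the 5′ UTR, 179 and 158 nt before the start codon in replicates 1 and 2. Backgrounds are given here as a level in reads of the control library. They are not always whole numbers, so they are not plain counts of reads at the summit. Which library was the control is not given in the sources used here. The upstream peak reached 5.48-fold in replicate 1, from 129 IP reads over a background of 26, and 9.72-fold in replicate 2, from 97 IP reads over 8.6. The higher fold of replicate 2 thus went with fewer IP reads and a still lower background. The other peak of Jun straddled the stop codon. Its summit lay 14 nt before the stop codon in replicate 1 and 129 nt after it in replicate 2, with 2.93-fold (166 IP reads over 64) and 4.72-fold enrichment (133 over 26). It had the most IP reads of any Jun peak in each replicate and the lower fold of the pair, because the background under it was the higher one.

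Junb (chr8:84974484-84978718, − strand), which in many settings restrains growth where Jun promotes it, had peaks over almost all of its coding transcript, a single exon at chr8:84976910-84978718. A single peak of 1669 bp in replicate 1 had 4.24-fold enrichment at a summit in the coding sequence (118 IP reads over 31). In replicate 2 the same stretch was called as 2 peaks, one early in the coding sequence at 7.56-fold (126 over 15) and one at the stop codon at 7.62-fold (95 over 11). The peaks covered 92.2% and 87.9% of the transcript in replicates 1 and 2. The signal between the 2 peaks of replicate 2 is not in the lists, so why the stretch was called as 1 peak or 2 was not tested. Jund (chr8:70698949-70700616, + strand), the most steadily expressed of the family, had its main summit 18 and 19 nt before the stop codon, 1 bp apart between replicates. Enrichment there was 5.66-fold (148 IP reads over 29) and 6.43-fold (134 over 19). A further peak early in the coding sequence was found in replicate 2 only, at 2.91-fold and a −log10 q of 7.74, the weakest fold of all peaks of the group. All 3 Jund summits also lay in an exon of Gm11175, a gene annotated on the opposite strand. The lists carry no strand, so reads of Jund and of Gm11175 cannot be told apart, and without summits shared with another gene 7 of the 10 genes carried a peak in both replicates. The 30.9% of all protein-coding genes keeps such summits, and the share without them is not given here.

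The sites below are the GGAC sites nearest to a summit by the stop codon of each Jun family gene, shown because they place a candidate methylated A on the transcript. The antibody marks a fragment and not a base, so none of them is a mapped m6A. They are given from 5′ to 3′ on the transcript strand (GRCm38) with 12 bases on each side of the A, and capitals mark GGAC followed by A, C or T, the sequence that the m6A writer prefers.
Jun, 3′ UTR, chr4:95050127-95050151, − strand: tacacaagatGGACTgggttgcgac
Junb, last codons, chr8:84977395-84977419, − strand: aggggtcaagGGACAcgccttctga
Jund, 3′ UTR, chr8:70700097-70700121, + strand: gcgcatgcgcGGACTagctgcggtg
The A of the Jun site lay 1 nt from the summit of replicate 2 and 144 nt from that of replicate 1, which had a site of another sequence 19 nt away, shown next with its capitals marking DRACH (a first base other than C, then A or G, then AC, then a base other than G).
Jun, 3′ UTR, chr4:95050252-95050276, − strand: aacgttttgaGAACAgactgtcagg
DRACH is the wider motif of m6A and includes every GGAC not followed by G. The A of the Junb site lay 3 nt from a summit of replicate 2 and 10 nt before the stop codon. The A of the Jund site lay 46 and 47 nt past the summits of replicates 1 and 2, and 28 nt past the stop codon.

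Fos proteins cannot pair among themselves and bind DNA with a Jun partner. All 3 Fos family genes have 4 exons, and in each the strongest peak by q lay in the last one. Fos (chr12:85473890-85477273, + strand) had a peak in the coding sequence with summits 264 and 270 nt before the stop codon, at 4.72-fold (82 IP reads over 19) and 4.02-fold (37 over 8). That peak ran across the stop codon into the 3′ UTR in replicate 1. In replicate 2 a separate peak lay there, with its summit 147 nt past the stop codon and 4.31-fold enrichment (37 over 7.4). A peak over the 5′ UTR of Fos, 7.27-fold from 38 IP reads over 5, was called in replicate 1 only. The IP reads of the coding peak, at summits 6 bp apart, had 95% Poisson intervals of 65.2 to 102 and 26.1 to 51.0, which did not overlap. Such intervals cover counting error only.

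Fosb (chr7:19302696-19310051, − strand), whose product is a strong partner of Jun, held the highest enrichment of the group in replicate 1. The summits of its main peak lay 30 and 39 nt past the stop codon, with 12.3-fold (65 IP reads over 5) and 11.1-fold enrichment (34 over 2). These values stood at percentiles 98.4 and 95.6 of all exonic peaks of their replicate. A second peak in the 5′ UTR had 5.40-fold (28 over 5) and 6.36-fold enrichment (19 over 2), with summits 20 bp apart. Some Fosb transcripts lose an intron of 140 nt (chr7:19305007-19305146) within what is the last exon of the full-length form, and that splice makes the shortened ΔFosB protein. The replicate 1 peak covered 130 nt of this intron and the replicate 2 peak none of it. Both summits lay past its 3′ end, by 194 and 203 bp, in sequence that all 6 Fosb transcripts of the basic annotation share, so the main peak does not separate the full-length form from the short one.

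Fosl2 (chr5:32135801-32157842, + strand), which encodes FRA-2, has the longest transcript of the group at 6537 nt and, of the 8 genes with a peak, the smallest part of it under peaks, 10.5% and 10.9%. Its main peak lay just past the stop codon, 92 and 70 nt downstream, at 9.50-fold (50 IP reads over 5) and 11.3-fold (56 over 3.8). A second peak lay further into the 3′ UTR, 618 and 612 nt past the stop codon, at 4.90-fold (21 over 4) and 8.80-fold (23 over 1.6). The main peaks of Fosl2 and Fosb had the highest folds of the group in both replicates. Their order relative to each other switched between replicates, so they are not distinguished. The folds of 11.1 and 8.80 rest on backgrounds of 2 and 1.6 control reads, where counting error in the control is large.

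For the Fos family some sites near summits are shown in the same way. For Fos, Fosl2 and the 5′ UTR peak of Fosb they are the nearest GGAC sites, with GGAC and the next base in capitals. No site is shown for the 5′ UTR peak of Fos or the distal peak of Fosl2. The main Fosb peak had no GGAC within 50 nt of either summit. Its nearest sites were of the wider motif DRACH, and there the capitals mark DRACH.
Fos, codon 293, chr12:85476181-85476205, + strand: tgccagatgtGGACCtgtccggttc
Fos, 3′ UTR, chr12:85476602-85476626, + strand: tgggcctcaaGGACTtgcaagcatc
Fosb, 5′ UTR, chr7:19309645-19309669, − strand: gacagagcctGGACTttcaggaggt
Fosb, 3′ UTR, chr7:19304802-19304826, − strand: caaaacaaacAAACCcgcaaggaac
Fosb, 3′ UTR, chr7:19304791-19304815, − strand: aacccgcaagGAACAaggaggagga
Fosl2, 3′ UTR, chr5:32153242-32153266, + strand: cccttcccagGGACCagcaccttta
The A of the Fos coding site lay 1 and 7 nt from the summits, and that of its 3′ UTR site 11 nt from the replicate 2 summit. The A of the Fosb site in the 5′ UTR lay 15 and 35 nt from the summits there. A DRACH site that is not shown lay nearer, 0 and 20 nt from them. The pair of Fosb sites in the 3′ UTR overlap, 11 nt apart, and each lay 1 nt from the summit of one replicate. Within 50 nt of each summit of that peak stood 7 DRACH sites, the most of any peak of the group. The nearest GGAC was 69 and 60 nt away. The A of the Fosl2 site lay 25 and 3 nt from the summits of the main peak.

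Ier2 (chr8:84661331-84662852, − strand), a short nuclear protein induced with Fos and Jun, is intronless as well. Its main summit lay in the 3′ UTR, 406 and 409 nt past the stop codon and 3 bp apart between replicates. Enrichment there was 5.53-fold (159 IP reads over 32) in replicate 1 and 8.34-fold (148 over 16) in replicate 2, and the −log10 q of 59.9 and 74.2 was the highest of the group in each replicate. A peak in the coding sequence of replicate 1, at 3.49-fold (94 over 30), was part of the single peak of 1328 bp in replicate 2. The peaks covered 80.7% and 87.3% of the transcript. Both sites are shown because each lies close to a summit.
Ier2, codon 134, chr8:84662338-84662362, − strand: tagtgatgccGGACTggtaccaagc
Ier2, 3′ UTR, chr8:84661665-84661689, − strand: gccagggtgtGGACCcgccctaggg
The A of the coding site lay 18 nt from its replicate 1 summit. The A of the 3′ UTR site lay 5 and 2 nt from the summits of replicates 1 and 2.

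The Egr genes divided. Egr1 (chr18:34859823-34864984, + strand), a zinc finger factor that holds blood stem cells in their niche, carried a peak over coding sequence and stop codon in its last exon. In replicate 1 this was a single peak of 1195 bp at 5.45-fold (33 IP reads over 6), with its summit 350 nt before the stop codon. In replicate 2 it was broken into 3 peaks of 236, 263 and 206 bp, at 5.97-fold (14 over 1.4), 4.29-fold (17 over 3) and 6.04-fold (18 over 2). Their summits lay 769 and 416 nt before the stop codon and 14 nt past it. The folds of both replicates were alike, but the −log10 q was 13.2 in replicate 1 and between 4.99 and 8.36 in replicate 2, with the value of 4.99 the lowest of the group. Egr2 (chr10:67535475-67542188) and Egr3 (chr14:70077203-70082614), its close relatives, had no exonic peak. The nearest peaks lay 5505 and 5443 bp from Egr2, and 54431 and 54447 bp from Egr3. Their transcripts held 15 and 10 GGAC, against 12 in Egr1, so they did not lack the motif. Expression of each gene cannot be read from a peak list, and a gene without a peak can lack m6A or lack the reads to show it.

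**Figure D2:**
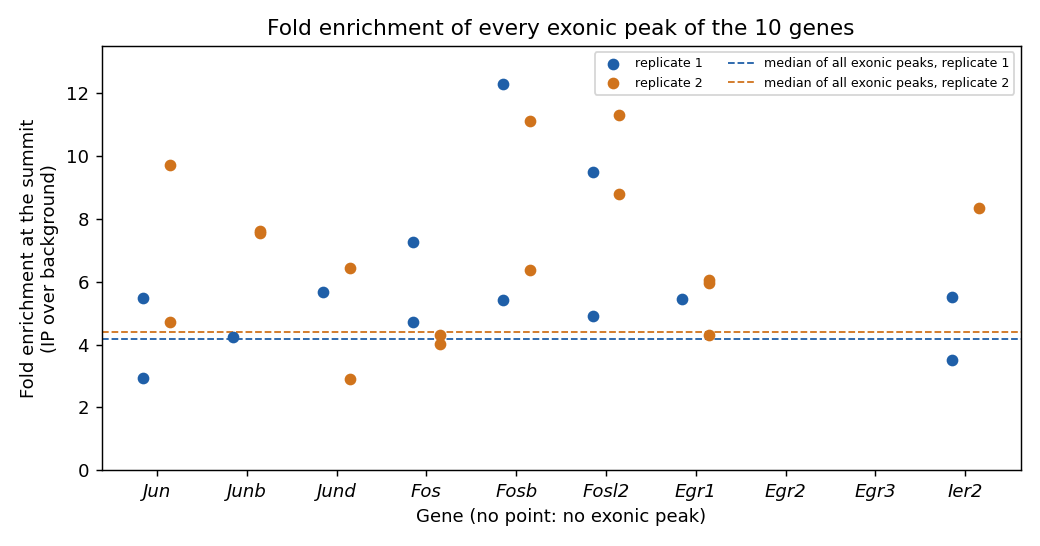
Fold enrichment at the summit (y axis, IP over background, linear from 0) of every exonic peak of the 10 genes, 1 point per peak, for replicate 1 (blue) and replicate 2 (orange), with dashed lines at the medians of all exonic peaks, 4.18 and 4.39. Fosb and Fosl2 hold the highest points of both replicates, and Egr2 and Egr3 have none.

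The summits lay in exons of at least 400 nt for 12 of 13 peaks in replicate 1 and 16 of 16 in replicate 2, beside 86.7% and 86.8% of all summits placed on a transcript, so the shares were near those of all peaks. The exception was the 5′ UTR peak of Fos, in an exon of 291 nt. The summit lay in the last exon for 11 of 13 peaks in replicate 1 and 15 of 16 in replicate 2, beside 61.6% and 61.1% of all placed summits. For the 4 intronless genes the only exon is counted as the last, so their summits could not lie elsewhere and raise these counts. All 4 intronless genes (Jun, Junb, Jund and Ier2) carried a peak in both replicates, whereas 15.0% of all intronless protein-coding genes did. Many such genes, among them the olfactory receptors, are not used in blood cells, and the share among expressed ones was not computed.

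The stop codon lay under a peak in both replicates in 6 of the 8 genes, namely Jun, Junb, Jund, Fosb, Fosl2 and Egr1, and in a single replicate in Fos and Ier2. Among all genes with a peak in both replicates the share was 52.6%. The start codon lay under a peak in both replicates in Jun, Junb and Ier2, 3 of the 8 genes, beside 17.9% overall. All of these 3 are intronless genes with wide peaks. Jun, Fos, Fosb and Fosl2, 4 of the 8, carried 2 or more peaks in both replicates, beside 35.1% overall. Summits within 200 nt of the stop codon numbered 4 of 13 and 7 of 16, beside 30.7% and 29.8% of all summits. The count was close to that share in replicate 1 and above it in replicate 2. In replicate 2 Junb, Fos and Egr1 each had a separate peak with its summit in that window.

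Motifs were searched on the transcript strand only. GGAC stood within 50 nt of 9 of 13 and 10 of 16 summits, beside 57.0% and 56.7% of all placed summits, and DRACH within 50 nt of every summit of the group, beside 93.8% and 93.9%. These shares were therefore near those of all peaks. Per kb of transcript the genes ranged from 2.54 GGAC in Egr3 to 8.29 in Junb, with a median of 4.0 over all protein-coding genes. Jun, Junb, Jund, Fosb, Fosl2, Egr2 and Ier2 lay above that median and Fos, Egr1 and Egr3 below it. The 3′ UTRs were searched for ATTTA, the core of AU-rich elements by which many immediate early mRNAs are marked for decay. Fos had 4 copies (4.91 per kb of 3′ UTR), Junb 2 (4.12) and Jun 4 (3.24), and Fosb 1 (0.466) and Ier2 none, beside a median of 1.30 per kb. The density was above that median in 8 of the 10 genes, and Egr2 (2.50) and Egr3 (2.65), which had no peak, were among them.

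The replicates were then compared for these genes. Of the 29 peaks in both lists, 27 (93.1%) overlapped a peak of the other replicate, beside 84.2% and 86.8% of all exonic peaks of replicates 1 and 2. The exceptions were the 5′ UTR peak of Fos and the early peak of Jund. The share was 69.0% where summits had to lie within 100 bp (all exonic peaks 71.7% and 74.8%), and 55.2% where the overlap had to cover at least 50% of each peak (76.5% and 79.7%). In 7 cases a peak overlapped exactly 1 peak that overlapped no other (both peaks of Jun, Fosb and Fosl2, and the main one of Jund). The fold was higher in replicate 2 in 6 of these 7, all but the main peak of Fosb, with a median log2 ratio of replicate 2 to replicate 1 of 0.25 and all within 2-fold. Over the 11524 such pairs of the whole lists the median was 0.02 with an SD of 0.47. The fold was higher in replicate 2 in 5941 of them. Of all these pairs 95.2% were within 2-fold, so the share within 2-fold among the 7 was near that of all pairs. The log2 ratios of the distal peak of Fosl2 (0.85), the upstream peak of Jun (0.83) and its stop codon peak (0.69) were larger than that SD, and differences of the size of the Fosl2 and upstream Jun values were found in 8.13% and 8.70% of all pairs. Where peaks were split, the ratios of Junb were 0.83 and 0.85 and that of the main summit of Ier2, 3 bp apart between replicates, 0.59. The coding peak of Ier2 in replicate 1 set against the single peak of replicate 2, whose summit lay 689 bp away, gave 1.26.

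The background differed more between replicates than the fold did. At all 16 overlaps between a peak of replicate 1 and a peak of replicate 2 in these genes, the background in control reads was lower in replicate 2. It was 0.233 to 0.760 of its replicate 1 value, and below the median ratio of all one-to-one pairs each time. Only 7 of the 16 overlaps were one-to-one. The others, in Junb, Fos, Egr1 and Ier2, use a peak more than once and are not independent of each other. For the 7 pairs the median ratio was 0.40, beside 0.811 for all pairs. The IP reads of the 7 pairs had a median ratio of 0.801, beside 0.985. Among the 7 pairs the main peak of Fosb had the lowest ratio of IP reads, 0.523 at summits 9 bp apart, and Fosl2 the highest, 1.12 and 1.10. For Fos the ratio was 0.451 and for Egr1 0.424 to 0.545, in each case 1 wide peak of replicate 1 set against narrower ones of replicate 2, with summits up to 411 and 419 bp apart. The background of the upstream Jun peak went from 26 to 8.6 control reads and that of Ier2 from 32 to 16. Several other lists had median ratios of the background below 0.811 as well. The median was 0.558 for serum response factor and its partners (7 pairs in 4 genes), 0.670 for other AP-1 and related subunits (4 pairs in 3 genes), 0.714 for other immediate early genes (15 pairs in 12 genes) and 0.720 for stem and progenitor markers (6 pairs in 4 genes). For the Egr partners it was 0.835 (2 pairs in 1 gene), above the 0.811 of all pairs. Of the other cell type markers the single endothelial pair, in Kdr, was at 0.40, the hepatocyte pairs had a median of 0.750, and the macrophage and erythroid pairs 0.855 and 0.897. Low ratios were thus not confined to the 8 genes. The background is a level estimated from the control and follows both the abundance of the RNA and the depth of that library. How it was estimated at each summit is not in the lists, and it can differ between replicates. With 2 libraries, a difference in the cells cannot be told apart from one in their handling or in library making.

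**Figure D3:**
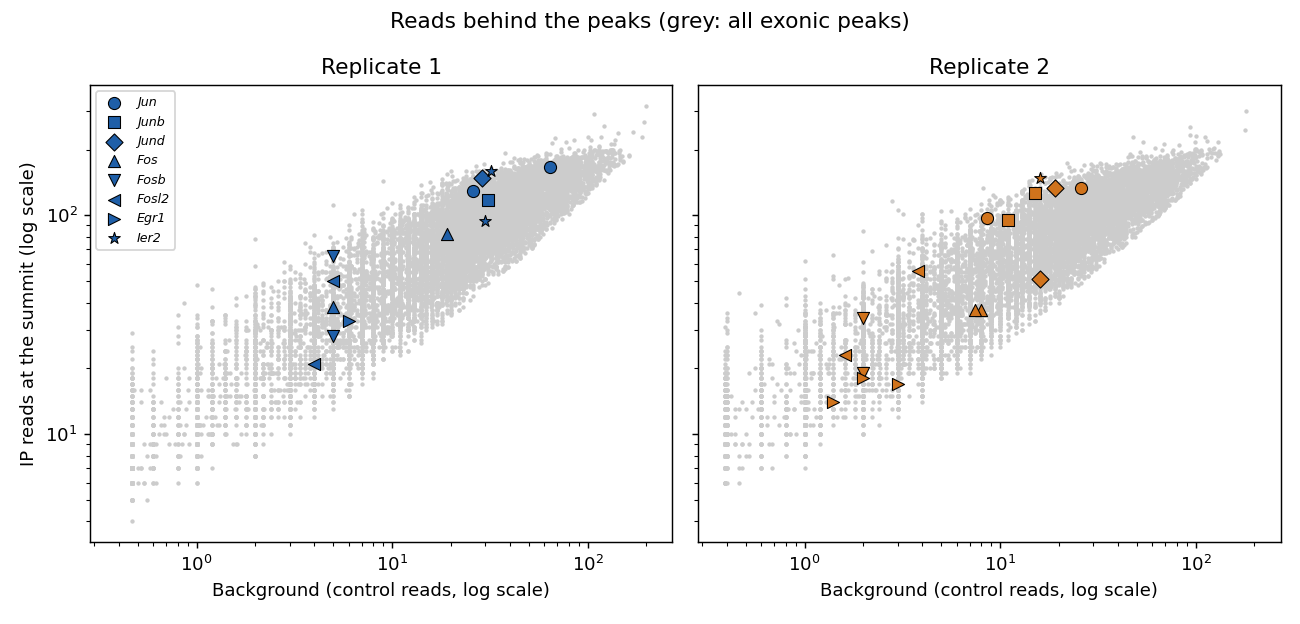
IP reads at the summit (y axis, log scale) against the background in control reads (x axis, log scale) for the peaks of the 8 genes (symbols by gene) and for all exonic peaks (grey), with replicate 1 on the left and replicate 2 on the right. In replicate 2 the symbols lie further to the left, from 1.4 to 26 control reads, than in replicate 1, where they run from 4 to 64.

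The neighbours of these genes in the pathway were counted in the same way, beside the 30.9% of all protein-coding genes, expressed or not. These lists too were chosen with earlier results of these data known. Of 8 other AP-1 and related leucine zipper subunits, 3 carried a peak in both replicates, namely Jdp2 (strongest peak 9.73-fold and 9.40-fold in replicates 1 and 2), Batf (7.04 and 10.1) and Atf7 (2.40 and 2.25). Jdp2 and Batf encode partners that limit AP-1 activity. The other 5, among them Fosl1 and Atf3, had none. Of 4 partners and relatives of the Egr proteins, only the corepressor gene Nab1 (4.40-fold and 5.35-fold) had a peak in both.

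Serum response factor and its partners switch on Fos, Egr1 and their like, and 5 of 6 of their genes carried a peak in both replicates. The strongest were in Mrtfb (12.1-fold and 10.3-fold), Elk3 (4.53 and 9.05) and Elk4 (5.55 and 8.0), and Elk1 alone had none. Of 22 other immediate early genes, 13 carried a peak in both replicates and 6 in neither. The strongest were in Csrnp1 (5.47-fold and 12.4-fold), Rhob (7.84 and 8.71) and Btg1 (5.69 and 9.87). The remaining 3, the nuclear receptor gene Nr4a1 (7.80-fold) and the kinase genes Plk2 (6.38) and Sgk1 (6.48), had a peak in replicate 1 only, at −log10 q of 9.16, 6.46 and 6.83.

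**Figure D4:**
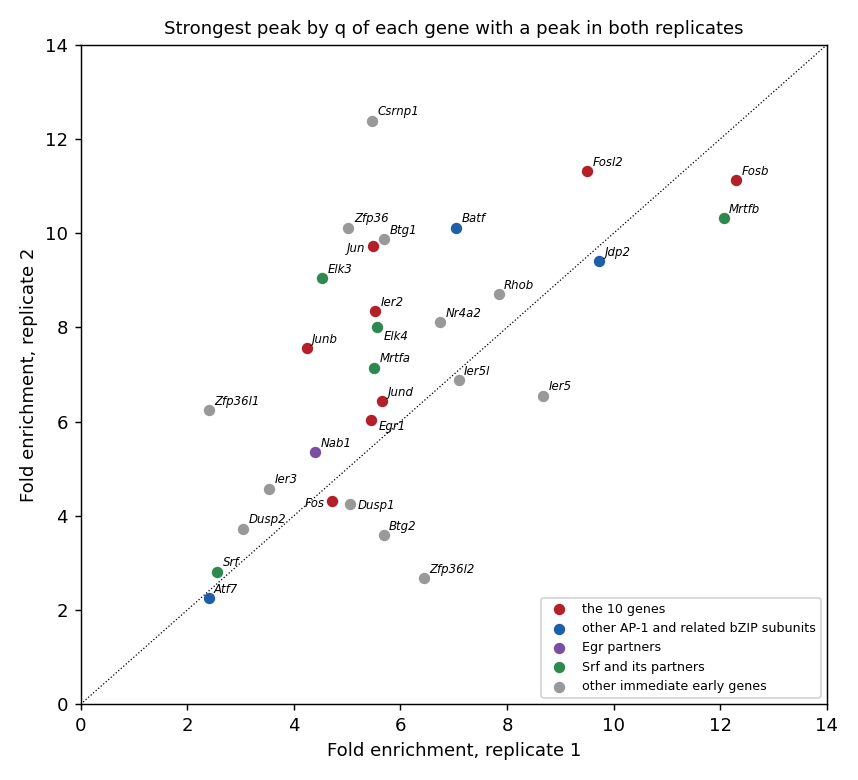
Fold enrichment in replicate 2 (y axis) against replicate 1 (x axis), both linear, of the strongest peak by q of each gene that carried a peak in both replicates, 1 point per gene, coloured by list, with the line of equal values dotted. Fosb and Fosl2 lie with Mrtfb and Jdp2 at high fold in both replicates, while Csrnp1, Zfp36, Btg1 and Jun lie above the line.

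Marker genes of cell types were counted in the same way, beside the 30.9% of all protein-coding genes, expressed or not. These counts cannot check the cell type label, because a peak list does not show expression. Among stem and progenitor markers Gata2, Tal1, Runx1 and Lmo2 carried a peak in both replicates, whereas Kit, by which the cells were enriched, and Myb had none. Of the erythroid markers 3 of 4 had a peak in both, of macrophage markers 2 of 4 and of endothelial markers 1 of 4. Of 4 hepatocyte markers Apoa1 and Hnf4a carried a peak in both replicates, Afp in replicate 1 only and Alb in neither. Which cells the transcripts of the 8 genes came from was not tested.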

How the data were processed

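The authors aligned reads to GRCm38 (mm10) with HISAT2 and called peaks per replicate with MACS2 2.1.1.20160309 (nomodel). The deposited values per peak are a fold enrichment, as defined above, a −log10 p-value and −log10 q-value at the same position, and a score made from −log10 q. The control library and the threshold are not given in the sources used here. The smallest −log10 q was 1.31 and 1.30. Library totals are not known from peak lists.

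Summits were set on exons of the GENCODE M21 basic set, and positions, motifs and stop codon distances on the transcript with the longest coding sequence. IP reads and background in control reads were computed from the deposited fold enrichment and −log10 p together, with 1 added to IP signal and background. A whole number of IP reads matched for 100% of peaks in both replicates (tolerance 0.0005 in −log10 p; 0.874 and 1.05 IP reads per control read). Because of the added 1 and this scaling, IP reads divided by the background do not give the printed fold directly. On 1500 simulated peaks at each of 2 scalings, the IP reads were recovered for 100%. Peaks were called shared on an overlap of at least 1 bp. Python 3.11.15, pandas 2.3.3, scipy 1.17.1 and pysam 0.24.0 were used. Sequences are those of GRCm38, with coordinates counted from 1. No test between groups was possible. The members and lists were chosen with earlier results of these data known. All members are named, and of each pathway list the 3 genes of highest mean fold with a peak in both replicates and any with a peak in 1 replicate. Alternatives covered the exon rule, limits on q, fold and motif window, the stop codon window, the definition of a shared peak, and each replicate left out.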

Additional observations from a re-analysis of the deposited data

How the results depend on the processing

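The number of genes with a peak in both replicates stayed at 8 under every alternative but 1, the removal of summits that also lie in an exon of another gene, which left 7 (Jund dropped out). It was 8 when either replicate was left out. The share of all protein-coding genes under the same alternatives is not given here. Of 57 alternative values, 5 moved a count by over 1.5 times or a share by more than the spread between replicates. With 400 nt on either side of the stop codon, 7 of the 13 summits of replicate 1 counted as near it in place of 4. With a motif window of 25 nt, 6 of the 16 summits of replicate 2 had a GGAC in place of 10, and with DRACH in its place 16 had one. In replicate 1 the same settings gave 6 and 13 in place of 9, and with a window of 100 nt the counts were 12 and 15. The shares of all placed summits at these other window widths are not given here. A change of window can move those shares too, so these shifts cannot be called particular to the genes. The share of the peaks found in the other replicate fell from 93.1% to 69.0% when summits had to lie within 100 bp, and to 55.2% when each peak had to cover at least 50% of the other. No paired analysis was possible because the series has a single group of IP samples with peak lists. Folds over a background of a few control reads, as for Fosb, Fosl2 and Egr1 in replicate 2, are limited by counting error in the control, and peaks of few IP reads, as for Egr1, by that in the IP.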
